A study of Sus scrofa with 5 samples.

Results

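NODAL and activin are ligands of the TGF-β family, and 9 genes of their pathway were followed through porcine blastoids and the porcine embryonic stem cells (pESCs) that blastoids are made from. The genes were named for their place in the pathway, with earlier results of these data known. They are the ligand genes *NODAL*, *GDF3* and *INHBA*, the genes of the secreted antagonists FST and CER1, the receptor genes *ACVR1B*, *ACVR2A* and *ACVR2B*, and the intracellular inhibitor gene *SMAD7*. These are 9 of the 30029 genes listed in the count files, and all 9 were also present in the bulk RNA-seq table.

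In this pathway, a ligand brings together type II receptors (ACVR2A, ACVR2B) and type I receptors such as ACVR1B, which phosphorylate SMAD2 and SMAD3. These join SMAD4 and enter the nucleus. In the epiblast, the signal maintains pluripotency genes, and graded NODAL patterns the embryonic axis and induces mesoderm and endoderm. Follistatin (FST) binds activin, CER1 binds NODAL, and SMAD7 blocks the activated type I receptor.

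Blastoids are embryo-like structures assembled from stem cells in culture, and 2 scRNA-seq libraries of day 6 porcine blastoids, all of 1 treatment, allow comparisons between cells within blastoids only. The pESCs of 3 bulk RNA-seq libraries grew in 4FIXY medium on mouse embryonic fibroblast feeders, with activin A, IGF1, IL-6, sIL-6 Receptor α, XAV939, IWR1 and Y-27632. The iBlastoid medium that gave the blastoids also held activin A, besides LIF, BMP4, bFGF, IGF1, IL-6, sIL-6 Receptor α, CHIR99021, XAV939, Y-27632, DZNep and TSA, and SB431542, an inhibitor of the type I receptors for activin, NODAL and TGF-β. In the paper's 2-step method, cell clusters first formed in 4FXY medium and were then moved to iBlastoid medium. The 4FXY medium is 4FIXY without IWR1, with activin A and without SB431542. Both cultures therefore received activin from outside. The methods derive pESCs from parthenogenetic blastocysts, and blastoids with a cavity and both compartments were picked by hand. The bulk columns are named IVFP25, PA_4P7 and PAP25, which the labels do not tie to the lines pESC-1 to pESC-3. The names differ in ways that may mark the embryo origin (IVF may stand for in vitro fertilization) and the passage, so the columns may not be replicates of 1 kind of line.

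The libraries held 7369 and 8175 cells, with a median of 29728 and 27588 UMIs (unique molecules counted) per cell. They shared 9 cell barcodes. Cells were sorted in silico by 5 gate genes, none of which belongs to the pathway set. A cell entered a gate with at least 3 UMIs of the gate gene, at 3 or more times the level in near-empty barcodes of its library (free RNA), and only if it passed no other gate. The *POU5F1* gate (pluripotency) held 636 and 723 cells in libraries 1 and 2, the *CRABP1* gate 211 and 313, the *GABRP* gate 719 and 604, the *TP63* gate 1065 and 1198, and the *COL3A1* gate 555 and 495. Another 412 and 449 cells passed both *GABRP* and *TP63*, and 49.7% and 52.5% of the cells passed none. Gates are not cell types, and marker lists were read in them without the 5 gate genes, which some lists contain. Summed pluripotency markers reached 578 and 828 CPM (counts scaled to the total of the sum) in the *POU5F1* gate, against at most 293 CPM in the others, and 5 of 6 had their highest mean there. This gate also held *GATA3* at 108 and 70.4 CPM. Free RNA set its cut at 165 CPM of *POU5F1* in library 1 and 292 CPM in library 2. The part of this cut in differences between the libraries was not tested. In the *CRABP1* gate 7 of 9 neural markers were highest, and in the *COL3A1* gate 7 of 7 mesenchymal markers, at 3067 and 2863 CPM against at most 184 CPM in the other gates. Trophectoderm markers summed highest in the *GABRP* gate, with 6 of 9 highest there, but most of the sum was *KRT8* and *KRT18*, while *GATA2*, *TFAP2C* and *CDX2* were highest in the *TP63*, *POU5F1* and *COL3A1* gates. The sum of amnion markers did little to set the *GABRP* gate (557 and 547 CPM) apart from the *TP63* gate (486 and 455 CPM). Of these 5 markers, 3 (*ISL1*, *VTCN1* and *IGFBP3*) had their highest mean in the *GABRP* gate, *TFAP2A* in the *TP63* gate and *BAMBI* in the *COL3A1* gate. Surface ectoderm markers summed higher in the *GABRP* gate (1974 and 2074 CPM) than in the *TP63* gate (1658 and 1567 CPM), although 3 of 4 had their highest mean in the *TP63* gate. *KRT5* of that list was at 0 UMIs in the *POU5F1* and *COL3A1* gates. Among the gates, the *COL3A1* gate also had the highest sums of hypoblast markers (407 and 416 CPM, against 345 and 320 CPM in the *TP63* gate) and of cardiac markers (306 and 333 CPM, against at most 129 CPM in the other 4 gates). Of the 8 hypoblast markers 6 had their highest mean there, and *SOX17* and *APOA1* did not. *GATA6* was at 193 and 183 CPM in the *COL3A1* gate against at most 14.1 CPM in the other gates, *APOA1* was higher in the *TP63* gate (331 and 312 CPM) than in the *COL3A1* gate (96.6 and 115 CPM), and *SOX17* had 14 and 2 UMIs and *FOXA2* 0 and 1 in the *COL3A1* gate. Most of the cardiac sum there was *MYL7*, at 188 and 197 CPM, which cells without a gate also held, at 136 and 71.4 CPM.

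UMIs were summed per library and gate, and each gate was compared with the mean of the other 4 on the log2 scale by edgeR's quasi-likelihood test, adjusted over 17628 genes. A gene was called at an adjusted p below 0.05. Nothing states that the 2 libraries came from separate cultures, so p-values measure only the spread between these libraries, which may be technical. Many genes differ between such gates, and each count of members below is read against the share of all genes called. A CPM of a 3' library is not corrected for length and is compared here between gates, never between genes. CPM also lacks the scaling factors (TMM) that the tests use. These ran from 0.864 in the *GABRP* gate of library 2 to 1.13 in the *CRABP1* gate of library 1. Small steps and overlaps between gates in CPM can therefore differ from the tests.

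*SMAD7* is itself induced by SMAD signalling, and its promoter is shown because it alone among the 9 genes holds the full SMAD palindrome. The gene lies on chromosome 1 of Sscrofa11.1 from 98512800 to 98543924 on the minus strand. The 250 bases before its annotated start (chr1:98543925-98544174, minus strand, RefSeq), with the palindrome in capitals, read 5′ to 3′:
SMAD7: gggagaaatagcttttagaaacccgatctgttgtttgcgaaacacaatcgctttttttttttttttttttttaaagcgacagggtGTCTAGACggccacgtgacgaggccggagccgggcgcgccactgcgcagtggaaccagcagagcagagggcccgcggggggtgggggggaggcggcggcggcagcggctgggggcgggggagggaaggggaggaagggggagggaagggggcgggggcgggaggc
The match to GTCTAGAC starts 165 bases before the annotated start, and 32 of 19557 annotated promoters of this length (0.164%) hold it on either strand. The shorter SMAD motif CAGAC, searched on both strands, was found before *NODAL*, *CER1* and 1 of 2 annotated *INHBA* loci, and in 39.0% of all promoters. That *INHBA* locus is the one on chromosome 12, which is not annotated as protein-coding, and the protein-coding locus on chromosome 18 had no match. All these shares are of promoters of protein-coding genes. The FOXH1 motif TGTNNATT was in none of these windows and in 8.74% of all promoters. Matches are descriptions of letters and not binding sites.

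Both epiblast ligand genes were highest in the *POU5F1* gate and scarce even there. *NODAL* (chromosome 14, 73350358 to 73357064, minus strand) was at 1.94 CPM in library 1 and 3.88 CPM in library 2, from 52 and 102 UMIs. Elsewhere it was at 0.123 and 0.0560 CPM in the *GABRP* gate, 0.0294 and 0.128 CPM in the *TP63* gate and 0.194 and 0.169 CPM in the *COL3A1* gate. The *CRABP1* gate held no *NODAL* UMI in either library, which allows up to 0.524 and 0.395 CPM. The *POU5F1* gate thus stood apart from every other gate in both libraries, and the other gates lay below the free RNA level of 0.610 and 0.427 CPM, which itself rests on 1 UMI per library. Against the *CRABP1* gate, with 3 UMIs set in place of 0, the *POU5F1* gate was at least 3.70-fold higher in library 1 and at least 9.82-fold higher in library 2. Against the 5 UMIs of the *TP63* gate in library 2 it was 30.3-fold higher. *NODAL* reached the level asked by the filter on low counts in the *POU5F1* sums alone, so it could only have been tested as a gene that differs there, and its difference is given as a description. The fitted log2 difference was 5.58 ± 0.49 (SE), a value that depends on how the empty *CRABP1* sums are treated. Within library 1 alone the difference was 3.50 and within library 2 alone 4.45 on the log2 scale.

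*GDF3*, a NODAL-related ligand (chromosome 5, 62835926 to 62841827, minus strand), followed the same gate. Its level was 1.23 and 2.24 CPM in the *POU5F1* gate, from 33 and 59 UMIs. In the *TP63* gate it was 0.294 and 0.179 CPM, in the *GABRP* gate 0.205 and 0.0560 CPM, and in the *CRABP1* and *COL3A1* gates 0 CPM in library 1 and 0.132 and 0.169 CPM in library 2. The *POU5F1* gate again overlapped with no other, while neighbours in the order of the other 4 gates overlapped, and free RNA held no *GDF3* UMI. The *POU5F1* gate exceeded the *TP63* gate 4.18-fold in library 1 and 12.5-fold in library 2. The log2 difference from the mean of the other gates was 3.75 ± 0.48 (SE), again a description, since *GDF3* too passed the filter through the *POU5F1* gate alone.

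A UMI of these ligand genes was detected in few cells. Whether few cells express them or many do at a low level was not tested. A *NODAL* UMI was found in 35 of 636 cells of the *POU5F1* gate in library 1 (5.50%, exact 95% interval 3.86% to 7.57%) and in 60 of 723 in library 2 (8.30%, 6.39% to 10.6%). For *GDF3* these were 27 cells (4.25%, 2.82% to 6.12%) and 38 cells (5.26%, 3.75% to 7.14%). In the *COL3A1* gate, where mesenchymal markers lead, 3 of 555 and 2 of 495 cells held a *NODAL* UMI (0.541% and 0.404%). Intervals cover counting error only. The *POU5F1* cells were also the deepest, at a median of 38976 and 34517 UMIs against 22449 and 20144 in the *COL3A1* gate. After each cell was thinned to 10000 UMIs, the *NODAL* share was 1.42% and 2.36% in the *POU5F1* gate and 0.360% and 0% in the *COL3A1* gate, where 0 of 494 cells allows up to 0.607% as 3 cells of the total and up to 0.744% by the exact interval. A cell held at most 6 *NODAL* UMIs. Of all *NODAL* UMIs in cells, 65.0% and 72.9% came from the *POU5F1* gate, which held 10.6% and 9.93% of all UMIs, and 20 and 29 *NODAL* UMIs lay in cells that passed no gate.

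**Figure D1:**
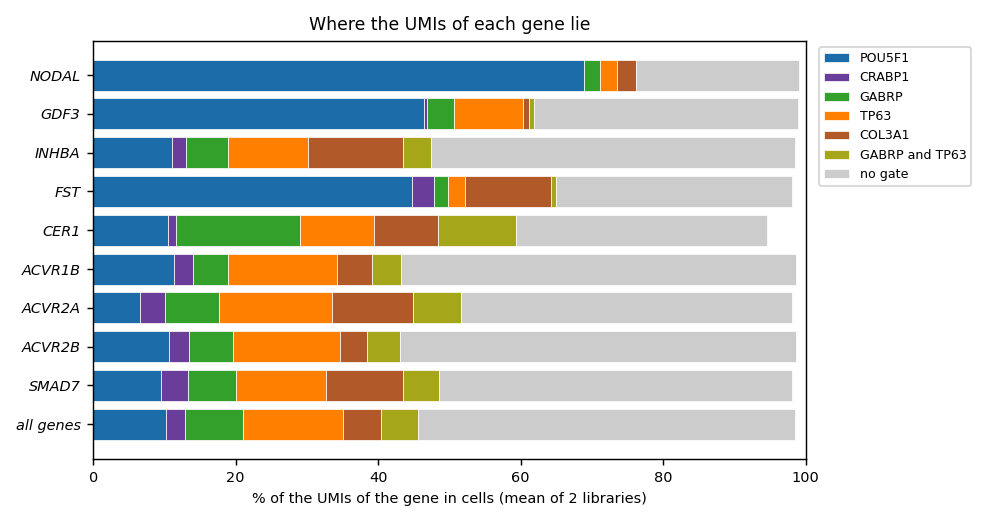
Share of the UMIs of each gene that came from each gate (x axis, percent of the UMIs in cells, mean of 2 libraries; y axis, gene, with all genes together in the last bar). The remainder up to 100% lies in cells that passed another combination of gates. *NODAL*, *GDF3* and *FST* fill the *POU5F1* segment far beyond the 10.6% and 9.93% it takes of all UMIs, while *ACVR1B* and *ACVR2B* stay close to the bar of all genes.

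*INHBA*, the gene of the activin A subunit, had another distribution, with its peak in the *COL3A1* gate. It was at 22.0 and 20.2 CPM there and at 9.79 and 8.40 CPM in the *POU5F1* gate. The remaining gates were at 7.86 and 5.40 CPM (*CRABP1*), 7.09 and 6.32 CPM (*TP63*) and 6.67 and 5.38 CPM (*GABRP*). These 3 overlapped with each other and with the free RNA level of 6.71 and 5.55 CPM. The *COL3A1* gate was 2.25-fold and 2.40-fold above the *POU5F1* gate in libraries 1 and 2, the next in order. Its log2 difference from the mean of the others was 1.63 ± 0.11 (SE; edgeR, adjusted p = 2.05e-07). *INHBA* was also called lower in the *CRABP1* gate by -0.74, the *TP63* gate by -0.48 and the *GABRP* gate by -0.40 (edgeR, adjusted p = 0.00370, 0.00692 and 0.0215). These 3 calls were lost with thinned cells (edgeR, adjusted p = 0.122, 0.126 and 0.0648) and also against all other cells of the libraries. The symbol is annotated at 2 loci, on chromosome 12 (53115379 to 53117128) and on chromosome 18 (52889684 to 52909260). The gate counts were read from 1 entry of this symbol. The sources do not say whether that entry covers either locus or both, so its level is uncertain. The chromosome 12 locus has 1 exon and is not annotated as protein-coding, while the chromosome 18 locus is protein-coding with 6 exons. The part of each locus in the *INHBA* level of the gates was not tested.

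Among the antagonists, *FST* was spread over the gates in a steep order. It lies on chromosome 16 from 32806341 to 32811382 on the plus strand. Its level was 131 and 184 CPM in the *POU5F1* gate, 77.7 and 77.3 CPM in the *COL3A1* gate, and 48.9 and 34.3 CPM in the *CRABP1* gate. The *GABRP* gate followed with 7.20 and 10.6 CPM and the *TP63* gate with 4.44 and 8.11 CPM. No neighbours in this order overlapped other than the *GABRP* and *TP63* gates, both of which lay below the free RNA level of 22.0 and 25.6 CPM. From the *TP63* to the *POU5F1* gate the level rose 29.5-fold in library 1 and 22.7-fold in library 2.

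*FST* was called in 4 of the 5 gates by edgeR. The log2 difference was 2.86 ± 0.16 (SE, adjusted p = 6.52e-08) in the *POU5F1* gate and 1.70 ± 0.18 (SE, adjusted p = 7.60e-06) in the *COL3A1* gate. It was -2.02 ± 0.24 (SE, adjusted p = 1.89e-05) in the *GABRP* gate and -2.85 ± 0.23 (SE, adjusted p = 2.14e-06) in the *TP63* gate by edgeR. The *CRABP1* gate, at 0.31 ± 0.22 (SE, adjusted p = 0.287 by edgeR), was not called. An *FST* UMI was present in 78.3% and 88.0% of *POU5F1* cells, and in 11.0% and 15.1% of *TP63* cells. With cells thinned to 10000 UMIs these shares were 56.1% and 70.8%, against 3.94% and 5.44%. The *TP63* gate, whose *FST* level lay below that of free RNA, had a median of 27757 and 26339 UMIs per cell before thinning. Single cells of this gate held up to 9 and 31 *FST* UMIs, and how much of its share is background was not tested. The 2 libraries differed in cells without a gate, which had 15.7 CPM in library 1 and 30.5 CPM in library 2.

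*CER1*, the NODAL antagonist (chromosome 1, 207817095 to 207821800), was near absent from blastoids. Its highest level was 0.819 and 0.504 CPM in the *GABRP* gate, from 20 and 9 UMIs, next to 0.582 and 0.506 CPM in the *COL3A1* gate. The *POU5F1* gate had 0.149 and 0.494 CPM, the *TP63* gate 0.206 and 0.256 CPM, and the *CRABP1* gate 0.349 CPM in library 1 and none in library 2. The *GABRP* and *COL3A1* gates overlapped. The *GABRP* gate was called higher by 1.50 ± 0.51 (SE; edgeR, adjusted p = 0.0264), and this call was lost with DESeq2 (adjusted p = 0.0980) and with the gate set at 2 times free RNA (edgeR, adjusted p = 0.0529).

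**Figure D2:**
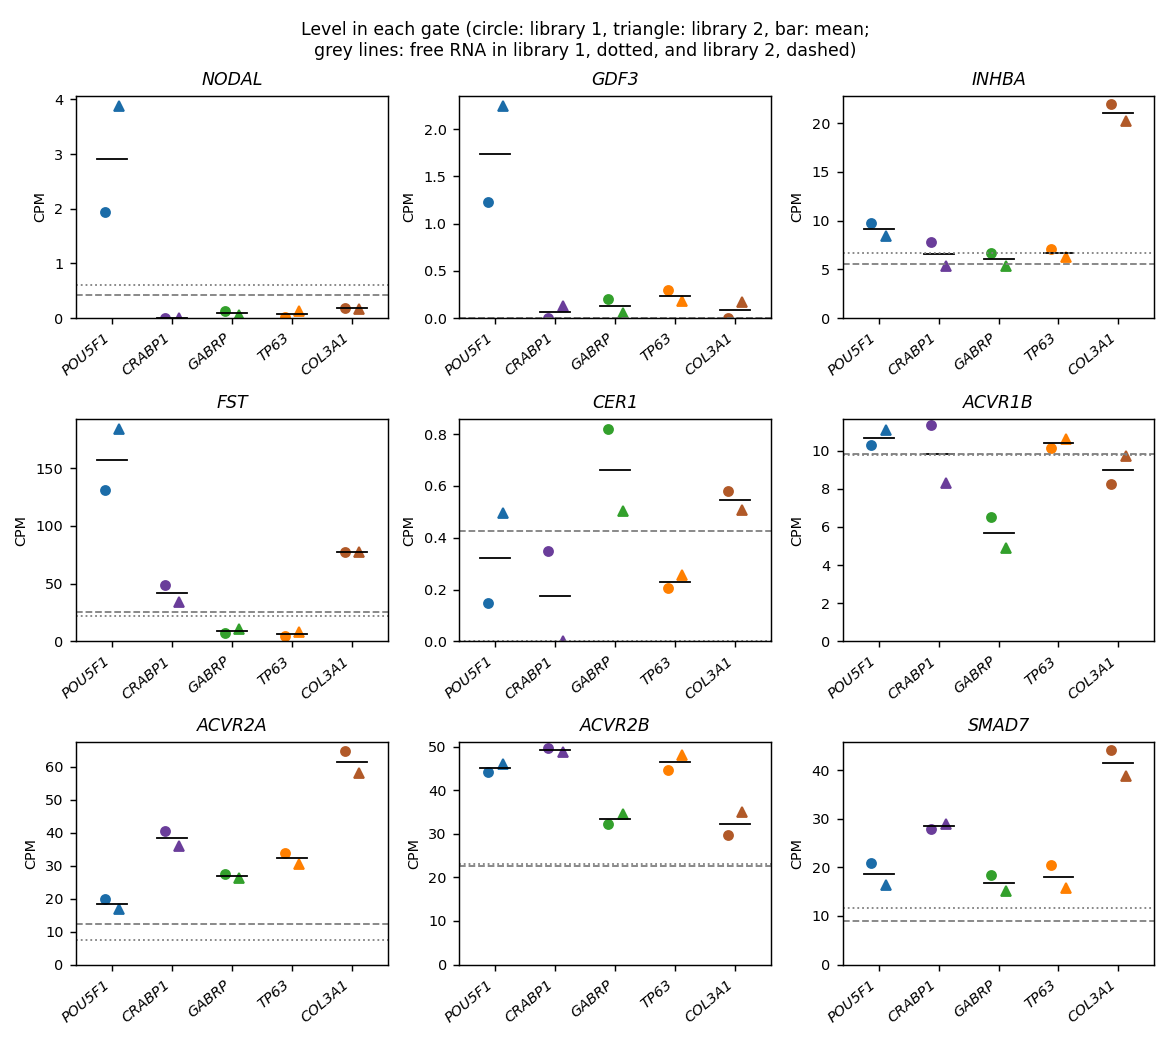
Level of each gene (y axis, CPM, linear and on a scale of its own) in the 5 gates (x axis). Circles are library 1, triangles library 2, black bars their mean, and grey lines the free RNA level in library 1 (dotted) and library 2 (dashed). *NODAL* and *GDF3* rise above the rest in the *POU5F1* gate alone, *INHBA*, *ACVR2A* and *SMAD7* peak in the *COL3A1* gate, and *FST* is high in both.

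The receptor genes were found in every gate, and the type II receptor genes differed in their order. *ACVR2A* (chromosome 15, 4177333 to 4259056, minus strand) was at 64.6 and 58.0 CPM in the *COL3A1* gate and 40.5 and 35.9 CPM in the *CRABP1* gate. It was at 33.9 and 30.5 CPM in the *TP63* gate, 27.5 and 26.1 CPM in the *GABRP* gate and 19.9 and 16.9 CPM in the *POU5F1* gate. In CPM no 2 gates overlapped, and all lay above the free RNA level of 7.32 and 12.4 CPM. The *CRABP1*, *TP63* and *GABRP* gates were not called, at 0.07, -0.03 and -0.10 (edgeR, adjusted p = 0.548, 0.777 and 0.286). The order of these gates in CPM is thus not read as a difference. By edgeR, *ACVR2A* was higher in the *COL3A1* gate by 1.18 ± 0.07 (SE, adjusted p = 5.58e-08) and lower in the *POU5F1* gate by -1.12 ± 0.08 (SE, adjusted p = 3.93e-07), where *NODAL* and *GDF3* were highest.

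*ACVR2B* (chromosome 13, 23237699 to 23276086, plus strand) was flatter. It was at 49.8 and 48.7 CPM in the *CRABP1* gate, 44.8 and 48.1 CPM in the *TP63* gate and 44.1 and 46.1 CPM in the *POU5F1* gate. The *GABRP* gate had 32.2 and 34.5 CPM and the *COL3A1* gate 29.7 and 35.0 CPM. In CPM the 2 lower gates overlapped with each other, as did the *TP63* and *POU5F1* gates. The *CRABP1* gate, highest in CPM, was not called, at 0.14 (edgeR, adjusted p = 0.185). Its place above the *TP63* gate is thus not read as a difference. By edgeR, *ACVR2B* was lower in the *COL3A1* gate by -0.38 ± 0.08 (SE, adjusted p = 0.00148), opposite to *ACVR2A*, and higher in the *TP63* gate by 0.24 ± 0.07 (SE, adjusted p = 0.0135). The latter call was lost against all other cells (edgeR, adjusted p = 0.209) and with the gate at 5 times free RNA (edgeR, adjusted p = 0.0517).

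*ACVR1B*, the type I receptor gene (chromosome 5, 17314322 to 17350726, plus strand), lay close to its free RNA level of 9.76 and 9.81 CPM in most gates. It was at 10.3 and 11.1 CPM in the *POU5F1* gate, 10.1 and 10.6 CPM in the *TP63* gate, 11.3 and 8.29 CPM in the *CRABP1* gate and 8.28 and 9.70 CPM in the *COL3A1* gate, which overlapped with each other in this order. The *GABRP* gate was apart from them, at 6.51 and 4.87 CPM. The latter was the only *ACVR1B* call, with -0.53 ± 0.14 (SE; edgeR, adjusted p = 0.00630).

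*SMAD7* shared the peak of *INHBA* and *ACVR2A*. Its level was 44.1 and 38.9 CPM in the *COL3A1* gate and 27.9 and 29.0 CPM in the *CRABP1* gate. The *POU5F1* gate had 20.9 and 16.5 CPM, the *TP63* gate 20.4 and 15.8 CPM and the *GABRP* gate 18.4 and 15.2 CPM. These last 3 overlapped, and all gates lay above the free RNA level of 11.6 and 8.96 CPM. In the *COL3A1* gate *SMAD7* was higher by 1.09 ± 0.11 (SE; edgeR, adjusted p = 4.41e-06). It was called lower in the *POU5F1* gate by -0.48, the *TP63* gate by -0.46 and the *GABRP* gate by -0.32 (edgeR, adjusted p = 0.00343, 0.00570 and 0.0364). Against all other cells of the libraries these were -0.15, -0.14 and -0.03 and none was called (edgeR, adjusted p = 0.465, 0.551 and 0.872).

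**Figure D3:**
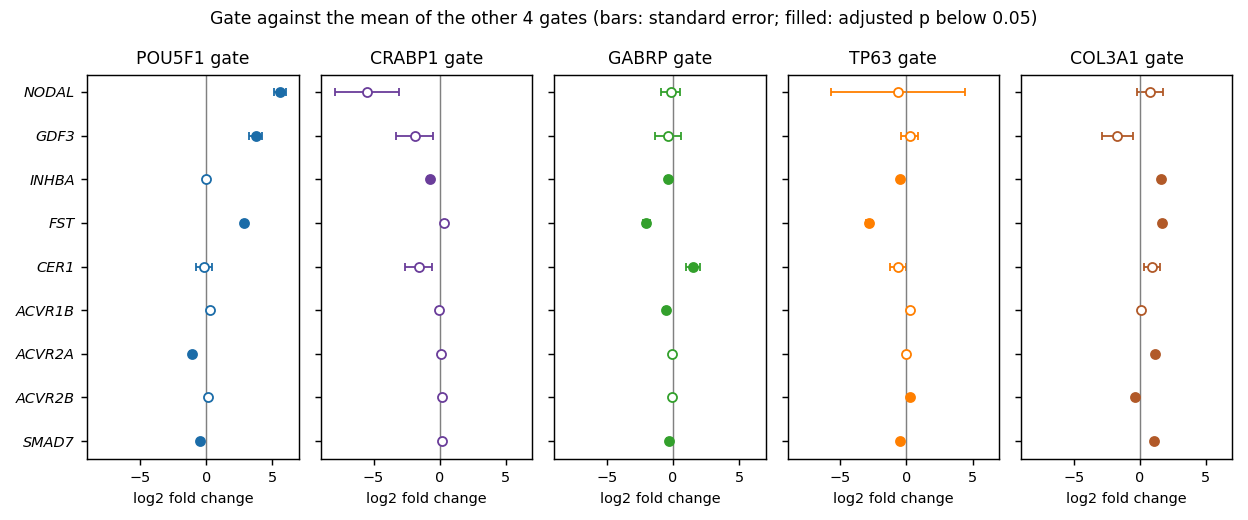
Log2 difference of each gate from the mean of the other 4 gates (x axis) for the 9 genes (y axis), 1 panel per gate. Points are edgeR estimates, bars their standard errors, and filled points an adjusted p below 0.05. The *COL3A1* panel has 4 filled points to the right, and the *NODAL* estimates outside the *POU5F1* panel rest on 0 to 5 UMIs per library.

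In the *POU5F1* gate, 3 of the 9 genes were called higher (*NODAL*, *GDF3*, *FST*) and 2 lower (*ACVR2A*, *SMAD7*), where 27.3% of all tested genes were called higher and 28.7% lower. Of these, *NODAL* and *GDF3* had entered the test through this gate alone, so the count of higher genes supports nothing. In the *COL3A1* gate, 4 were higher (*INHBA*, *FST*, *ACVR2A*, *SMAD7*) and 1 lower (*ACVR2B*), against 24.7% and 22.9% of all genes. The *GABRP* gate had 1 higher and 4 lower, against 29.1% and 25.6%, and the *TP63* gate 1 higher and 3 lower, against 21.1% and 20.3%. In the *CRABP1* gate none was higher and 1 was lower, against 20.4% and 21.2%. For *NODAL*, with no UMI in this gate, the fitted value is no measure of a difference beyond the bounds given above. The median log2 difference over the 9 genes was 0.11 in the *POU5F1* gate, -0.05 in the *CRABP1* gate, -0.32 in the *GABRP* gate, -0.46 in the *TP63* gate and 0.91 in the *COL3A1* gate. The median over all tested genes was -0.03 in the *POU5F1* gate and -0.01 in each of the others. The median of 0.91 in the *COL3A1* gate is the value of *CER1*, which was not called there (edgeR, adjusted p = 0.237). It has an SE of 0.60 and rests on 9 and 6 UMIs, so nothing is read from this median.

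**Figure D4:**
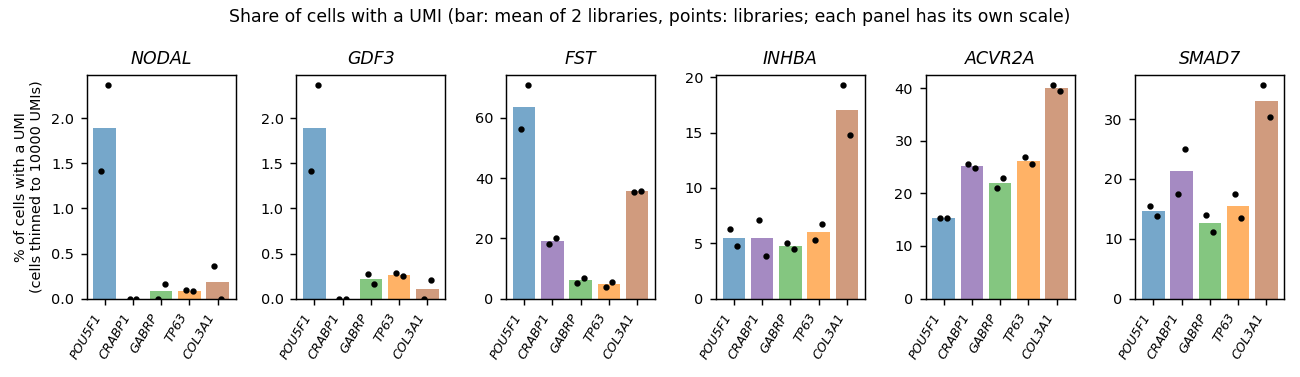
Percent of cells with a UMI of 6 of the genes in each gate (y axis, on a scale of its own per panel; x axis, gate), after thinning every cell to 10000 UMIs. Bars are means of 2 libraries and points the libraries. An *FST* UMI was in 56.1% and 70.8% of *POU5F1* cells, against 3.94% and 5.44% of *TP63* cells.

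Other genes of the pathway were read in the same way, against the share of all genes called. Of a list of 38 pathway genes, which includes the 9, 36 were in the count files and 32 were tested. In the *POU5F1* gate 8 of the 32 were higher and 14 lower, where 27.3% of all tested genes were higher and 28.7% lower. *NODAL* and *GDF3*, among the 8, entered the test through this gate alone, so nothing is read from the count of higher genes. The 3 with the largest change were *NODAL*, *GDF3* and *TDGF1*, the NODAL co-receptor, at 4.43 ± 0.27 (SE; edgeR, adjusted p = 1.11e-07). *TDGF1* was at 7.07 and 13.3 CPM there and at most 1.46 CPM in any other gate, so the co-receptor was highest in the same gate as *NODAL* and *GDF3*. The related ligand gene *GDF1* was highest in the *CRABP1* gate, at 40.3 and 46.5 CPM against 23.5 and 29.3 CPM in the *POU5F1* gate.

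In the *COL3A1* gate 17 of the 32 pathway genes were higher and 3 lower, against 24.7% and 22.9% of all genes. The leading genes were *TGFB2*, a TGF-β ligand, at 3.21, *BAMBI*, a decoy receptor, at 2.42 and *SMAD3* at 2.10 on the log2 scale (edgeR, adjusted p = 2.63e-09, 2.53e-10 and 3.42e-08). In the *TP63* gate 4 were higher and 16 lower, against 21.1% and 20.3% of all genes. The largest changes were those of *FST*, of *TDGF1* at -1.52 and of *PCSK6*, a proprotein convertase, at -1.48 (edgeR, adjusted p = 1.46e-05 for *PCSK6*). *TDGF1*, among the 16, had 12 and 14 UMIs in this gate. It passed the filter on low counts through the *POU5F1* and *GABRP* sums, so its difference is a description.

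In the *GABRP* gate 8 of the 32 were higher and 10 lower, against 29.1% and 25.6% of all genes. *FSTL3*, a follistatin-like activin binder, was higher by 2.53 and *TGFB3* by 2.38 (edgeR, adjusted p = 1.15e-09 and 1.28e-06). *FOXH1*, the DNA-binding partner of SMAD2, is counted among the 10, with 1 UMI in each library of this gate, and it passed the filter through the *POU5F1* and *CRABP1* sums, where it was at 1.68 and 1.82 CPM and at 0.524 and 0.526 CPM. The *GABRP* gate was thus low in *FST* and high in *FSTL3*. In the *CRABP1* gate 5 were higher and 9 lower, against 20.4% and 21.2% of all genes, with *GDF1*, a NODAL partner, higher by 2.17 (edgeR, adjusted p = 3.33e-07). *TDGF1*, among the 9, had 1 and 2 UMIs in this gate, under the 3 UMIs that a count of 0 allows. *ACVR1C*, another type I receptor gene, is counted among the 5, but it passed the filter on low counts through the *CRABP1* sums, with 14 and 4 UMIs (2.44 and 0.526 CPM), and its difference of 2.61 is a description.

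Of 16 known target genes, 12 were tested. In the *POU5F1* gate 5 of the 12 were higher and 4 lower, against 27.3% and 28.7% of all genes, with *NANOG* at 4.74 and *GSC*, an organizer gene, at 3.29 on the log2 scale next to *NODAL* itself. These 3 of the 5 passed the filter on low counts through the *POU5F1* gate, since outside it *NANOG* and *GSC* reached its level in a single *CRABP1* sum, so their differences are descriptions and nothing is read from the count. *OTX2*, added here after its values were seen, was at 63.6 and 74.9 CPM in the *POU5F1* gate and higher there by 1.84 (edgeR, adjusted p = 5.38e-08). In the *COL3A1* gate 6 were higher and 2 lower, against 24.7% and 22.9% of all genes, with *EOMES* at 2.62 and *LHX1* at 1.95 (edgeR, adjusted p = 2.52e-06 and 0.000244). *EOMES* was also called higher in the *POU5F1* gate, by 2.24 (edgeR, adjusted p = 5.71e-06). It was at 6.14 and 10.5 CPM there, against 9.12 and 10.1 CPM in the *COL3A1* gate. *LHX1* was at 1.49 and 3.04 CPM in the *COL3A1* gate, against 1.45 and 1.41 CPM in all cells. Cells without a gate held more *LHX1* than this gate in library 1 and less in library 2. *NODAL* itself had 3 and 2 UMIs in the *COL3A1* cells. The part of the mesenchymal, hypoblast and cardiac markers, which are highest in the *COL3A1* gate, in the levels of *INHBA*, *SMAD7*, *EOMES* and *LHX1* there was not tested. In the *GABRP* gate 3 were higher and 7 lower, against 29.1% and 25.6% of all genes. *NANOG* (4 and 2 UMIs) and *GSC* (5 and 0 UMIs), among the 7, did not pass the filter through this gate, so nothing is read from the count of lower genes. In the *TP63* gate none was higher and 6 were lower, against 21.1% and 20.3% of all genes, with *EOMES* at -3.21 (edgeR, adjusted p = 2.22e-05). *EOMES* had 13 and 15 UMIs there, and *NANOG*, also among the 6, had 7 and 6 UMIs. Neither passed the filter through this gate, so nothing is read from this count of lower genes either. The *CRABP1* gate had 2 in each direction, against 20.4% and 21.2% of all genes, with *OTX2* higher here too, by 1.56 and at 61.8 and 64.5 CPM (edgeR, adjusted p = 7.04e-07). The median log2 difference of the tested pathway genes was -0.14 in the *POU5F1* gate, -0.02 in the *CRABP1* gate, -0.10 in the *GABRP* gate, -0.60 in the *TP63* gate and 0.23 in the *COL3A1* gate. That of the targets was -0.14, -0.20, -0.71, -0.68 and 0.84 in the same order, beside the medians of all genes given above. The 0.84 in the *COL3A1* gate lies between the values of *NODAL* (0.76, from 3 and 2 UMIs) and *CER1* (0.91, from 9 and 6 UMIs). Neither was called there, so nothing is read from this median. *LEFTY2*, a feedback inhibitor of NODAL, had 7 and 8 UMIs in all cells of libraries 1 and 2 and fell under the filter, as did *T*, *MIXL1* and *FOXA2*.

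The genes most like each member over the 10 sums were found by Pearson's r of log2(CPM + 1). They were *HBE1* (r = 0.994), *ZAR1* and *LOC110262126* for *NODAL*, *ATP2A3* (0.985), *IRX6* and *LOC106505876* for *GDF3*, and *APOBEC3B* (0.988), *KCNH2* and *LOC110261986* for *INHBA*. For *FST* they were *VCP* (0.989), *TIMM17A* and *LSM8*, and for *SMAD7* *SLC8A1* (0.987), *DKK2* and *NKD1*. *ACVR2A* was nearest to *DEXI* (0.994), *SOX6* and *SEPT8*, *ACVR2B* to *LOC102165590* (0.972), *ZC3H13* and *PRKCB*, *ACVR1B* to *KAT7* (0.968), *POP1* and *FAM234B*, and *CER1* to *CD101* (0.889), *LOC100737961* and *PPP1R3B*. Sums of a gate share their cells' composition and sums of a library its preparation, and these are the highest of 17628 genes, so the values are descriptions.

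In pESCs, levels of the genes can be set side by side because FPKM is scaled by exon length. In bulk samples, fewer cells of a type and less RNA per cell cannot be told apart. The 3 libraries are 1 group without read depths, and no test was made. Values are given in the order IVFP25, PA_4P7, PAP25. *FST* was the highest, at 205, 184 and 200.3 FPKM, on average 196 ± 11.1 (SD, n = 3), and lay above 98.3% of all genes above 0 in every library. *ACVR2B* followed at 25.2, 38.8 and 38.0 FPKM, on average 34.0 ± 7.65 (SD, n = 3).

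In a middle group, neighbours overlapped. *ACVR1B* was at 7.21, 5.67 and 7.45 FPKM, *INHBA* at 4.65, 3.85 and 6.39 FPKM, and *SMAD7* at 2.26, 4.95 and 3.24 FPKM. The *INHBA* values add 2 entries, at 4.52, 3.80 and 5.21 FPKM and at 0.135, 0.0553 and 1.18 FPKM. The labels do not say which locus each entry is, so the place of *INHBA* in this group is uncertain. Taken alone, its lower entry lay below *NODAL* in IVFP25 and PA_4P7. *ACVR2A* was at 3.16, 3.33 and 3.68 FPKM, below *ACVR2B* in every library, by more than the spread between libraries. Among the values added per gene, the epiblast ligands were lowest, with *NODAL* at 0.345, 1.19 and 0.395 FPKM and *GDF3* at 0.637, 1.09 and 0.721 FPKM. Those 2 overlapped with each other and not with the receptor genes. *NODAL* overlaps *EIF4EBP2* on the opposite strand, and the sources do not say whether the bulk counting used strand, so its FPKM is uncertain. *INHBA* and *FST* are also fibroblast genes, and a list of 8 porcine fibroblast markers summed to 6.14, 5.87 and 7.56 FPKM, most of it from *COL1A1* at 4.47, 3.60 and 3.92 FPKM and *COL1A2* at 1.37, 1.93 and 2.31 FPKM. *COL3A1* of that list was at 0.0159 FPKM, 0 and 0.0182 FPKM. The feeders are mouse cells, and their part in these values was not tested.

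Of the 9 genes, *CER1* varied most between the pESC libraries, at 0.830, 4.85 and 14.2 FPKM, a 17.1-fold range with its highest value in PAP25. The target genes *LHX1* (0.586, 0.790 and 12.9 FPKM), *EOMES* (3.10, 5.04 and 10.9 FPKM) and *FOXA2* (13.2, 15.5 and 81.8 FPKM) were also highest in PAP25. *T*, the mesoderm gene, had 4.41, 3.09 and 40.6 FPKM. The feedback inhibitor *LEFTY2* had another order, with 7.16, 64.8 and 7.01 FPKM, and was highest in PA_4P7, as was *NODAL*. Of the 16 target genes, 8 were highest in PAP25 and 8 in PA_4P7, so the targets named here as highest in PAP25 do not stand for the list. With 1 library each, these differences have no replicate check. *TDGF1* was at 12.9, 19.7 and 15.2 FPKM and *GDF1* at 21.2, 18.6 and 21.4 FPKM, both above *NODAL* and *GDF3* in every library.

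**Figure D5:**
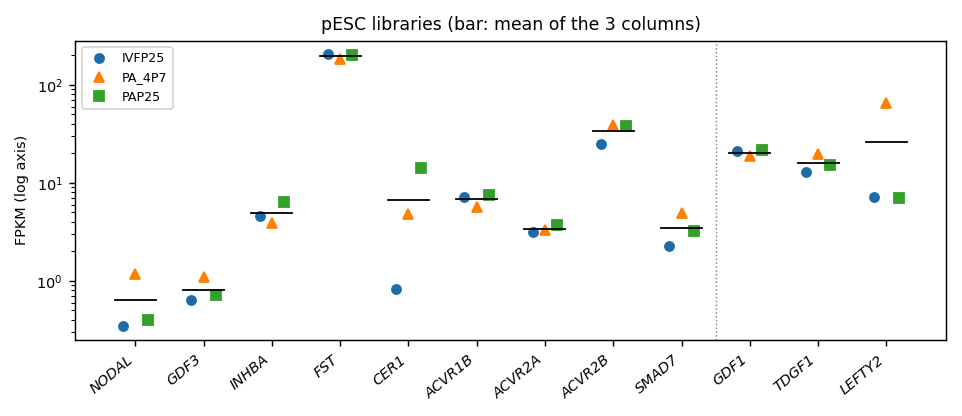
FPKM (y axis, log scale) of the 9 genes and, right of the dotted line, of *GDF1*, *TDGF1* and *LEFTY2* in the 3 pESC columns (symbols), with their mean as a bar. *FST* lies between 184 and 205 FPKM in all columns, while *CER1* runs from 0.830 to 14.2 FPKM and *LEFTY2* reaches 64.8 FPKM in PA_4P7.

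Cells that passed both *GABRP* and *TP63* were left out of the tests. They had *FST* at 4.10 and 5.43 CPM, below the level of either gate in both libraries, and no *NODAL* UMI in 412 and 449 cells. Their *ACVR2A* level, 36.2 and 36.4 CPM, was above that of either gate in both libraries. *CER1* was at 0.683 and 0.626 CPM there, in the range of the *GABRP* gate.

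The 3' ends of some gene models limit the counts. *FST* is annotated with 0 bases of 3' UTR, *ACVR2A* with 28 and *GDF3* with 53, and a 3' library places most reads near the transcript end, so UMIs beyond the model are not counted. How many were lost was not tested.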

How the data were processed

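The members and the lists of pathway genes, target genes and markers were chosen with earlier results of these data known. For scRNA-seq, the authors mapped reads to susScr11 (Sscrofa11.1) and counted UMIs with Cell Ranger 7.1.0, and the deposited values are raw counts of every barcode. For bulk RNA-seq, the authors trimmed reads with Trim Galore 0.6.4, mapped them with HISAT2 2.2.1 and deposited FPKM per RefSeq transcript from StringTie 2.2.1, which were added up here per gene symbol. The depth of these libraries is not given in the sources used here. The scRNA-seq files hold 289452283 and 302211552 UMIs. Barcodes with at least 11223 UMIs (library 1) or 9805 UMIs (library 2) were taken as cells, and barcodes of 10 to 100 UMIs as free RNA.

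Cells were gated as described, without removing doublets, and raw counts were summed per library and gate, which gave 10 sums. Low genes were dropped by filterByExpr, and edgeR 4.0.16 in R 4.3.3 fitted all gates at once with TMM factors and Benjamini-Hochberg adjustment. The procedure was tested on simulated data. Named genes were all 9 members, and at most 3 called genes per list and gate with the largest change, and some of these are not reported here. All sums of 1 library come from 1 preparation. Between gates, their deviations correlated at 0.0986 to 0.295 over 16190 genes, so the library pairs the sums, and a fit with it as a block was an alternative. Other alternatives were DESeq2 1.42.0 and its size factors, no filter, gates at 2 and 5 times free RNA, cells of several gates kept, a mitochondrial filter, removal of the highest Scrublet scores (434 and 535 cells, since the automatic threshold marked almost none), cells thinned to 10000 UMIs, and all other cells as the reference. Sequences and positions come from the RefSeq annotation of Sscrofa11.1.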

Additional observations from a re-analysis of the deposited data

How the results depend on the processing

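Of 20 called results of the 9 genes in the 5 gates, 12 kept direction and call under every alternative with a test. These were *NODAL*, *GDF3*, *FST* and *ACVR2A* in the *POU5F1* gate, *INHBA*, *FST*, *ACVR2A*, *ACVR2B* and *SMAD7* in the *COL3A1* gate, *FST* and *ACVR1B* in the *GABRP* gate and *FST* in the *TP63* gate. The calls of *NODAL* and *GDF3* say nothing of stability, since both passed the filter through the *POU5F1* gate alone. No called result changed sign in any alternative, also when either library was left out, which gives a value with no test. Calls were lost for the other 8, as given with each gene. Against all other cells the genes called in the *TP63* gate fell from 7302 to 4387, and the cause was not tested. The replicate block changed no call other than that of *NODAL* in the *CRABP1* gate (-5.57), where both libraries hold 0 UMIs, so this says nothing about the block. Over all alternatives, 8 single ones called a result that was not called before, this one included.

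Values that were not called changed sign as follows, and the cause was not tested. *INHBA* in the *POU5F1* gate (-0.01) went to 0.0061 with DESeq2's size factors, 0.0057 with DESeq2, 0.048 with the gate at 5 times free RNA, 0.022 with cells of several gates kept, 0.028 with the mitochondrial filter and 0.10 against all other cells. *NODAL* in the *GABRP* gate (-0.18) went to 0.51 and 0.10 with the gate at 2 and 5 times free RNA and 0.068 without doublets, and in the *COL3A1* gate (0.76) to -0.86 at 5 times and -1.19 against all other cells. *GDF3* went from -0.39 to 0.049 at 5 times in the *GABRP* gate, and from 0.24 to -0.41 at 2 times and -0.75 against all other cells in the *TP63* gate. *ACVR1B* went from -0.05 to 0.091 with thinned cells in the *CRABP1* gate and from 0.05 to -0.055 against all other cells in the *COL3A1* gate. *ACVR2A* went from 0.07 to -0.070 with thinned cells in the *CRABP1* gate and from -0.10 to 0.14 against all other cells in the *GABRP* gate. In the *TP63* gate (-0.03) it went to 0.10 at 5 times, 0.035 with cells of several gates kept, 0.070 with thinned cells and 0.24 against all other cells.

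Depth limits *NODAL*, *GDF3* and *CER1*, which outside their highest gate rest on 0 to 13 UMIs per library. Their lower gates were not tested against each other.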
